A study of Mus musculus with 16 samples.

Results

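A set of 7 little-studied transcripts was followed across the livers of male and female mice with and without deletion of Matr3 in the liver: the predicted gene models Gm31333, Gm34667, Gm1600, Gm15611, Gm42642 and Gm45716, and Hnf4aos, which is transcribed antisense to Hnf4a. They are 7 of the 23167 gene identifiers present in the count tables of both sexes, found by looking up their symbols in the annotation. They were listed because their counts differed between knockout and floxed livers in at least 1 sex, so those differences chose them and are given below as a description with no test. They are also not a complete set: 1456 models with a Gm number were tested in males and 1487 in females, and 14 and 71 of these were called at an edgeR adjusted p under 0.05, of which 5 and 6 are members.

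A predicted gene model is an annotated transcript known mostly from sequence and carrying a provisional number in place of a name. Many are long noncoding RNAs, which make no protein and can act in the nucleus, and others are processed pseudogenes, which are copies of a spliced transcript that were inserted elsewhere in the genome. An antisense transcript is made from the strand opposite to that of a coding gene, and some such RNAs affect the transcription of the gene they cross. Hnf4a, the gene opposite Hnf4aos, encodes a nuclear receptor that is a central transcription factor of hepatocytes. Matr3 encodes matrin-3, a protein of the nuclear matrix that binds RNA and takes part in splicing and in the retention of RNA in the nucleus.

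Poly(A) RNA was sequenced from whole liver of male and female mice in 4 groups of 4 libraries. All mice carried floxed Matr3 alleles and were fed for 16 weeks, from 7 weeks of age, on a high-fat diet in which fat supplied 60% of the energy, and all were fasted for 12 hours before tissue was taken. Liver knockout mice (LKO) also carried Cre recombinase under the albumin promoter, which is active in hepatocytes. Liver cells in which this promoter was never active keep the gene. Floxed mice without Cre were the controls. The groups were male LKO (replicates 5 to 8), male floxed (1 to 4), female LKO (5 to 8) and female floxed (1 to 4), and the labels call the LKO mice littermates of the floxed mice. By their mouse numbers, male floxed 1 and 2 lie apart from all the other mice, and fits without both are given below.

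The tables held 30495505 to 36496193 counts per library, and levels are given as CPM, which are counts scaled to library size by TMM. Matr3 averaged 35.6 ± 1.65 CPM in male LKO and 57.7 ± 3.81 CPM in male floxed livers, and 38.0 ± 1.40 CPM in female LKO and 58.0 ± 5.03 CPM in female floxed livers (SD, n = 4 each), with no overlap within a sex. Summed levels of 7 hepatocyte markers lay between 46442 and 90895 CPM in all libraries, so defining markers of the labelled tissue were present. In females 1 library of each genotype stood apart: on the first principal component, computed without the members, female LKO 7 scored 6.76 and female floxed 4 scored -10.8, against 32.0 to 42.2 in the other female LKO and -40.1 to -33.7 in the other female floxed libraries. Male LKO scored 12.8 to 24.9 and male floxed -20.7 to -12.5 on the component computed for males. These are bulk samples, so fewer cells of a type and less RNA per cell cannot be told apart.

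The annotation places the members on 6 chromosomes (mm10, GENCODE vM21). Hnf4aos (ENSMUSG00000046840) spans chr2:163493807-163541720 on the minus strand and is annotated as antisense, with 3 transcripts and 954 exonic bases. Gm31333 (ENSMUSG00000113986) is a long intergenic noncoding RNA (lincRNA) at chr12:29139167-29199768 on the plus strand, with 3131 exonic bases. Gm34667 (ENSMUSG00000113063) is a lincRNA at chr12:109990882-110023873 on the minus strand, with 1258 exonic bases. Both of these lie on chromosome 12, far apart.

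Gm1600 (ENSMUSG00000116270) is a lincRNA at chr16:10324105-10347591 on the minus strand, with 4727 exonic bases. Gm15611 (ENSMUSG00000084923) is a lincRNA of 2 exons and 406 exonic bases at chr5:8998402-8999669 on the minus strand. Gm42642 (ENSMUSG00000107185) is a processed pseudogene of 1 exon and 355 bases at chr6:3182630-3182984 on the minus strand. Gm45716 (ENSMUSG00000110344) differs from the others in being annotated as protein coding, at chr11:90187683-90251255 on the plus strand, with 3 transcripts and 2187 exonic bases.

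RefSeq's start windows of 3 members that were lower in LKO are shown as the stretch searched for short elements of liver transcription factors and core promoters. Each line is RefSeq's window for the gene on GRCm38.p6, the patched release of mm10, from 250 bases before the start to 50 bases after it, 5′ to 3′ on the gene's own strand. The windows are chr2:163541672-163541971 on the minus strand for Hnf4aos, chr12:29141679-29141978 on the plus strand for Gm31333 and chr12:110023936-110024235 on the minus strand for Gm34667. The Gm31333 window surrounds the start of a GENCODE transcript of the gene, at 29141929, which is downstream of the gene's own start. Gm34667 has 3 RefSeq windows, of which the first listed is shown, and it lies wholly outside the GENCODE gene, whose upper end is at 110023873. Capitals mark matches to the elements named after the lines.
Hnf4aos: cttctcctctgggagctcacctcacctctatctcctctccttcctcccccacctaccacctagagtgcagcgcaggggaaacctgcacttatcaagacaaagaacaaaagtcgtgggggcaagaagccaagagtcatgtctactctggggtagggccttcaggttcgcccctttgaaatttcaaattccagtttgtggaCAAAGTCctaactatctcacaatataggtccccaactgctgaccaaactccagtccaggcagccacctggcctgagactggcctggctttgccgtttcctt
Gm31333: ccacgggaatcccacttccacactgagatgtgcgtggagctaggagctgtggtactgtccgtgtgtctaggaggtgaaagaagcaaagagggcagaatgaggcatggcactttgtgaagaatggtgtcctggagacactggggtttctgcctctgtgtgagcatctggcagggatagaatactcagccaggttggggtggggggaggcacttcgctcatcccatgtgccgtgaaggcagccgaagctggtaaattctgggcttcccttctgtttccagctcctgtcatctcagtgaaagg
Gm34667: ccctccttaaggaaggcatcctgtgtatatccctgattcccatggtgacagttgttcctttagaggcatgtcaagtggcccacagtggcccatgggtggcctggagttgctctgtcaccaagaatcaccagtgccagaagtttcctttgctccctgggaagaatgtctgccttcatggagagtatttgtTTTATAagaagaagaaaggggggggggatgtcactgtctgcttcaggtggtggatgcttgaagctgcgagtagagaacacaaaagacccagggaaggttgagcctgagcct

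A set of 8 elements was searched on both strands: CAAAGTC (an HNF4-type element), GTTAAT (HNF1-type), TGTTTAC (FOXA-type), TTCNNNGAA (the GAS element of STAT factors), TTGCNNAA (C/EBP-type), TATAAA (the TATA box), CCAAT and GGGCGG (the GC box). The Hnf4aos window held CAAAGTC, beginning at position -51 from the start, and 4.44% of 32851 RefSeq windows of this length hold these letters. The Gm34667 window held TATAAA on the strand opposite to the gene at position -61, and 13.6% of windows hold it. The Gm31333 window held none of the 8. The window of Gm1600 (chr16:10331236-10331535, minus strand) likewise held none. The 4 windows had 1 to 8 CpG dinucleotides, against a median of 7 over all windows. A match describes the letters and not a bound site.

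The levels of the 7 transcripts are low and were compared between genes only per kilobase of exon. Exon length was that of all annotated transcripts of a gene together. The order of the genes therefore depends on which of their transcripts are made, which was not measured. In male LKO livers Gm45716 was highest at 9.49 ± 0.98 CPM per kb, followed by Hnf4aos at 3.31 ± 0.27 and Gm42642 at 2.93 ± 0.56, while Gm31333 at 0.247 ± 0.081 and Gm1600 at 0.155 ± 0.030 were lowest (SD, n = 4 each). In male floxed livers Hnf4aos was highest at 8.05 ± 3.08 CPM per kb, Gm34667 and Gm45716 followed at 4.67 ± 0.36 and 4.45 ± 0.42, and Gm42642 at 0.575 ± 0.184 and Gm1600 at 0.372 ± 0.076 were lowest. Hnf4aos and Gm42642 thus did not differ beyond their spread in male LKO livers and were far apart in male floxed livers.

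In female LKO livers Gm15611 led at 29.0 ± 8.08 CPM per kb, ahead of Gm45716 at 14.7 ± 4.20 and Gm42642 at 5.55 ± 1.01 (SD, n = 4 each). Gm34667 at 2.16 ± 0.83 and Hnf4aos at 1.65 ± 0.27 CPM per kb did not differ beyond their spread in that group. In female floxed livers Gm34667 led at 7.56 ± 2.999 CPM per kb, followed within its spread by Hnf4aos at 6.01 ± 0.57, and then by Gm45716 at 4.85 ± 0.81, Gm15611 at 2.73 ± 0.97 and Gm31333 at 1.67 ± 0.37. Hnf4a itself was far above its antisense transcript, at 99.5 ± 5.96 CPM per kb in male LKO, 112 ± 14.6 in male floxed, 175 ± 17.6 in female LKO and 122 ± 12.3 in female floxed livers.

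**Figure D1:**
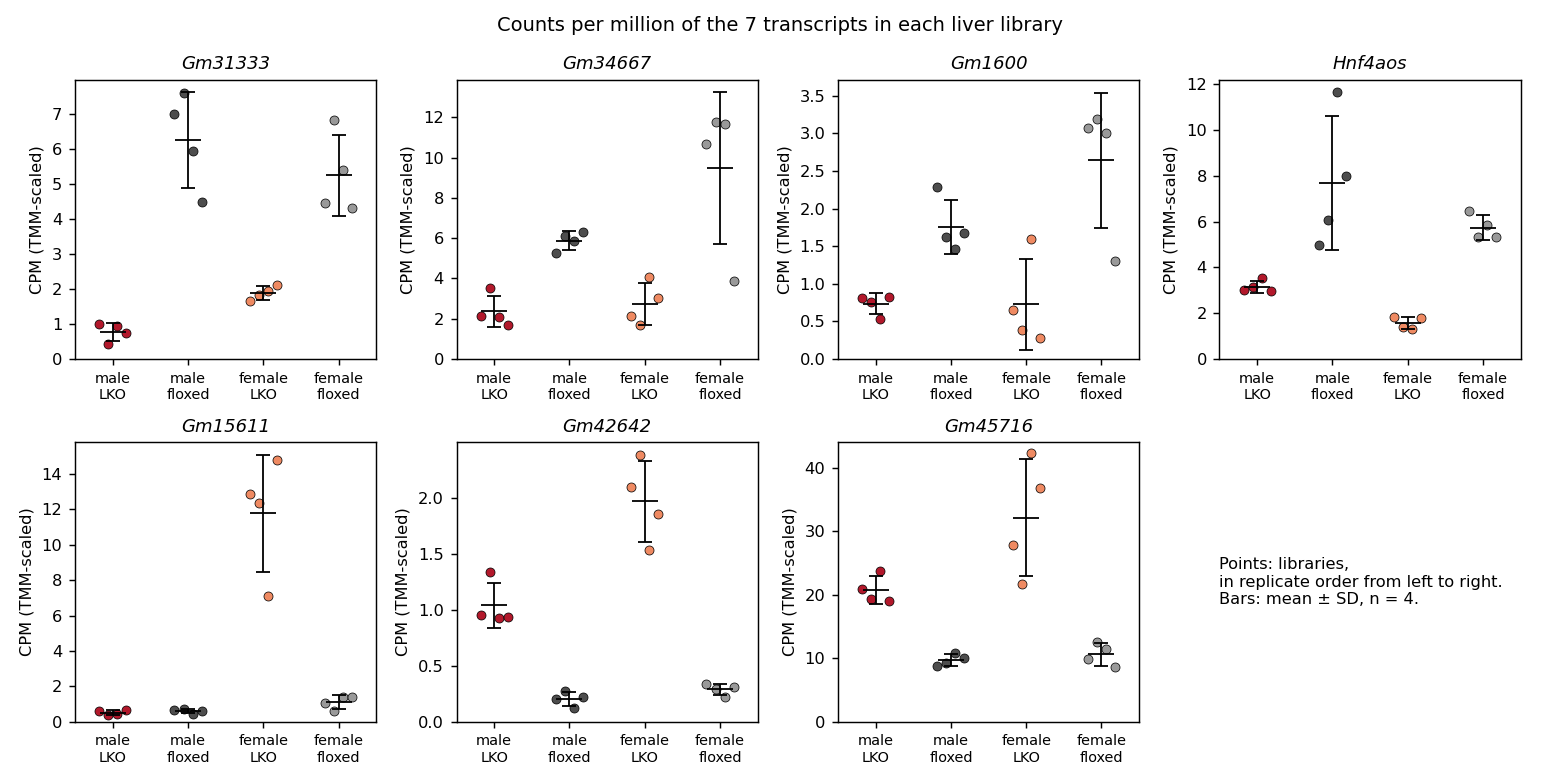
Level of each of the 7 transcripts (CPM, linear axes from 0) in every library of the 4 groups, with LKO left of floxed within each sex. Points are libraries and bars are mean ± SD (n = 4). Gm31333, Hnf4aos, Gm42642 and Gm45716 separate by genotype in both sexes, Gm15611 in females only, and Gm34667 and Gm1600 in males only. The genotype difference chose these transcripts, and the share of all genes that separate was not counted. Nothing is therefore read from the separation. For Gm34667 and Gm1600, 1 floxed female lies among the LKO females.

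Of the 7 members, 6 were called in males at an edgeR adjusted p under 0.05, 2 of them higher and 4 lower in LKO. The background in males was 1.04% of 15355 genes. All 7 were called in females, 3 higher and 4 lower, where the background was 9.29% of 15432 genes. Because this contrast chose the members, nothing is read from these counts. By direction the backgrounds were 0.528% higher and 0.514% lower in males, and 4.44% higher and 4.85% lower in females.

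Gm31333 had the largest relative decrease of the 7 in males. It measured 0.987, 0.427, 0.931 and 0.745 CPM in male LKO 5 to 8 and 6.99, 7.59, 5.94 and 4.48 CPM in male floxed 1 to 4. The 2 genotypes were far apart, and the mean in LKO males was 12.4% of that in floxed males. In females it measured 1.67, 1.81, 1.95 and 2.11 CPM in LKO 5 to 8 and 4.45, 6.82, 5.40 and 4.30 CPM in floxed 1 to 4. The female groups did not overlap either, but the LKO females kept 36.0% of the floxed mean, and every LKO female lay above every LKO male. The log2 fold change was -3.02 (SE 0.25) in males and -1.48 (SE 0.18) in females. The male LKO libraries held only 14 to 34 counts of it.

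Hnf4aos was lower in every LKO library of both sexes. It measured 3.02, 3.14, 3.54 and 2.95 CPM in male LKO 5 to 8 and 4.99, 6.08, 11.7 and 7.99 CPM in male floxed 1 to 4. The LKO males were tightly grouped and the floxed males spread widely, with male floxed 3 highest. Female livers measured 1.82, 1.40, 1.30 and 1.77 CPM in LKO 5 to 8 and 6.44, 5.31, 5.87 and 5.32 CPM in floxed 1 to 4. LKO means were 41.1% of the floxed mean in males (log2 fold change -1.29, SE 0.24) and 27.4% in females (-1.87, SE 0.16), and no groups of a sex overlapped.

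Gm34667 was lower in LKO males than in floxed males without overlap, while its female groups overlapped. It measured 2.12, 3.504, 2.11 and 1.71 CPM in male LKO 5 to 8 and 5.25, 6.08, 5.85 and 6.31 CPM in male floxed 1 to 4. In females it measured 2.13, 1.69, 4.06 and 3.02 CPM in LKO 5 to 8 and 10.7, 11.8, 11.7 and 3.89 CPM in floxed 1 to 4. Female LKO 7 thus lay just above female floxed 4, the 2 libraries that also stand apart on the first principal component. The log2 fold change was -1.32 (SE 0.20) in males and -1.80 (SE 0.36) in females.

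Gm1600 showed the same pair of crossing libraries at a lower level. It measured 0.813, 0.762, 0.527 and 0.828 CPM in male LKO 5 to 8 and 2.28, 1.63, 1.46 and 1.67 CPM in male floxed 1 to 4. Female livers gave 0.648, 0.382, 1.60 and 0.275 CPM in LKO 5 to 8 and 3.07, 3.19, 3.01 and 1.30 CPM in floxed 1 to 4, so that female LKO 7 again exceeded female floxed 4. The log2 fold change was -1.27 (SE 0.23) in males and -1.85 (SE 0.49) in females, and the female value was -2.59 without female LKO 7 and -2.82 without female floxed 4 and female LKO 7.

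Counts of Gm34667 and Gm1600 carry a further limit. Parts of Gm34667 matched annotated transcripts of 131 other genes over at least 100 bases at 88% identity or more, and parts of Gm1600 matched those of 34 genes. The longest match of each was to Gm42445, at 90.8% over 326 bases for Gm34667 and at 88.2% over 153 bases for Gm1600. How reads from such stretches were assigned is not given in the sources used here, so these counts are uncertain. Transcripts of Gm31333, Hnf4aos and Gm15611 had no such match.

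Gm15611 was the only member that was higher in LKO livers of 1 sex and not called in the other. In females it measured 12.8, 12.3, 7.10 and 14.8 CPM in LKO 5 to 8 and 1.04, 0.580, 1.40 and 1.42 CPM in floxed 1 to 4. Every LKO female was far above every floxed female, with female LKO 7 lowest of the LKO, and the mean was 10.6-fold that of the floxed females. In males it measured 0.581, 0.396, 0.434 and 0.662 CPM in LKO 5 to 8 and 0.656, 0.707, 0.416 and 0.631 CPM in floxed 1 to 4, so the male groups overlapped throughout. The log2 fold change was 3.40 (SE 0.30) in females and -0.22 (SE 0.27) in males, and the male libraries held only 13 to 24 counts of it.

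Gm42642 was higher in LKO livers of both sexes. It measured 0.958, 1.34, 0.931 and 0.938 CPM in male LKO 5 to 8 and 0.200, 0.276, 0.119 and 0.221 CPM in male floxed 1 to 4. Female livers measured 2.10, 2.39, 1.54 and 1.86 CPM in LKO 5 to 8 and 0.337, 0.290, 0.217 and 0.309 CPM in floxed 1 to 4. Neither sex showed overlap, and LKO means were 5.11-fold the floxed mean in males (log2 fold change 2.33, SE 0.29) and 6.83-fold in females (2.75, SE 0.25). The floxed values rest on 4 to 9 counts per library in males and 7 to 11 in females.

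The pseudogene can share reads with its relatives. The transcript of Gm42642 matched that of Gm10010, a lincRNA at chr6:128187818-128200623 on the minus strand, at 89.4% identity over 358 aligned bases, and that of Gm31138 at 91.2% over 228. The first 150 columns of the alignment with Gm10010, from the GENCODE transcripts and with the bases that differ in capitals, show how interspersed the differences are: 11 mismatches and 9 gap columns.
Gm42642: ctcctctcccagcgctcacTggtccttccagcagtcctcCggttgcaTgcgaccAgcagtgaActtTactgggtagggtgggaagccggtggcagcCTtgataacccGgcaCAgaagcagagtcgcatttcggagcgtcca
Gm10010: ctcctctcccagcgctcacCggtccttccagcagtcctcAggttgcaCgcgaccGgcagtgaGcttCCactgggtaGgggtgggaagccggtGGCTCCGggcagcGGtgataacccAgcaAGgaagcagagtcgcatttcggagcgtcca

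Gm10010 averaged 0.349 ± 0.098 CPM in male LKO, 0.234 ± 0.111 in male floxed, 0.324 ± 0.207 in female LKO and 0.181 ± 0.144 in female floxed livers (SD, n = 4 each). Its groups overlapped in both sexes. In males its log2 fold change was 0.56 (SE 0.40; edgeR adjusted p = 0.632), and in females it did not pass the filter on low counts. Gm31138, the other relative, was not tested in either sex, and no level is given for it.

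Gm45716, the member annotated as coding, was higher in every LKO library of both sexes. It measured 20.9, 19.3, 23.7 and 19.1 CPM in male LKO 5 to 8 and 8.78, 9.25, 10.9 and 10.04 CPM in male floxed 1 to 4. Female livers gave 27.9, 21.6, 42.3 and 36.8 CPM in LKO 5 to 8 and 9.82, 12.6, 11.5 and 8.56 CPM in floxed 1 to 4. Female LKO 7, the LKO female nearest to the floxed females for Gm34667, Gm1600, Gm15611 and Gm42642, was here the highest library. LKO means were 2.13-fold the floxed mean in males (log2 fold change 1.08, SE 0.10) and 3.03-fold in females (1.60, SE 0.20).

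**Figure D2:**
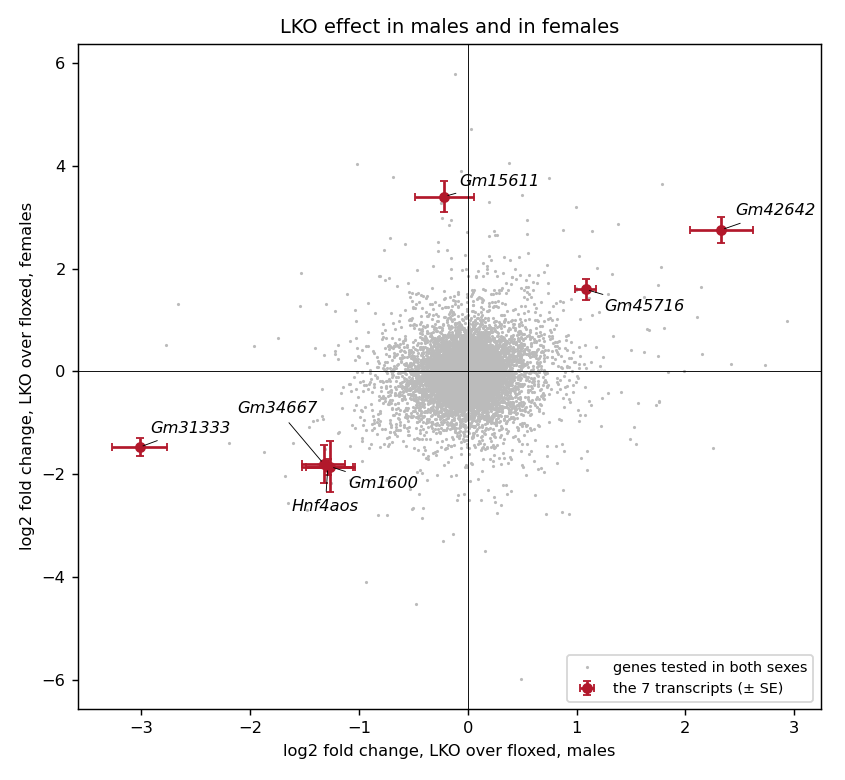
Log2 fold change of LKO over floxed livers in males (x axis) against females (y axis) for genes tested in both sexes (grey) and for the 7 transcripts (red, bars are ± SE). Gm31333, Gm34667, Gm1600 and Hnf4aos lie in the lower left, Gm42642 and Gm45716 in the upper right, and Gm15611 near 0 in males (-0.22) and at 3.40 in females.

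Whether genes beside the members moved with them was examined next, since neighbours were no part of how the members were chosen. The annotation gave 16 overlapping or nearest genes with a row in the tables, and 10 passed the filter on low counts. In females 4 of the 10 were called, 3 higher and 1 lower, where 9.29% of all genes were called. In males none was called by edgeR, 1 of the 10 (Gm31508) had an unadjusted p under 0.05, and DESeq2 called 1. The LKO effect differed between the sexes for 3 of the 10, with 2 larger and 1 smaller in females, where 4.46% of 16126 genes were called for this difference, 1.83% larger and 2.63% smaller.

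At the Hnf4a locus the antisense transcript and the coding gene went opposite ways in females. Hnf4a measured 886, 720, 856 and 912 CPM in female LKO 5 to 8 and 518, 663, 588 and 579 CPM in female floxed 1 to 4, so all LKO females were above all floxed females. It rose by a log2 fold change of 0.52 in LKO females (SE 0.11; edgeR adjusted p = 0.0230). In males it measured 449, 511, 497 and 464 CPM in LKO 5 to 8 and 500, 647, 507 and 513 CPM in floxed 1 to 4, which overlap, and LKO over floxed was -0.18 on the log2 scale (SE 0.09; edgeR adjusted p = 0.458). The effect in females exceeded that in males by 0.70 on the log2 scale (SE 0.15; edgeR adjusted p = 0.0150). The female call was lost when female floxed 1 (adjusted p = 0.0722), female floxed 3 (0.0601), female LKO 5 (0.0706) or female LKO 8 (0.0606) was left out, and the difference between the sexes when male floxed 1 and 2 were (0.0538, all from edgeR).

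No exonic base of Hnf4aos overlaps an exon of Hnf4a or of R3hdml, the other gene it crosses. Its start lies 5.1 kb upstream of the Hnf4a-203 transcript, 5.5 kb upstream of Hnf4a-201 and Hnf4a-202, and 8.4 kb upstream of Hnf4a-204. The Hnf4aos start is also inside the long first intron of Hnf4a-205, whose start is 34.9 kb away on the other side. Ttpal, the gene of a tocopherol transfer-like protein, lies 60.6 kb beyond Hnf4aos on the far side of Hnf4a. It measured 35.4, 32.6, 23.0 and 35.7 CPM in female LKO 5 to 8 and 15.7, 17.9, 18.7 and 20.7 CPM in female floxed 1 to 4. It rose in LKO females (log2 fold change 0.79, SE 0.14; edgeR adjusted p = 0.0120), was -0.09 in males (SE 0.10; adjusted p = 0.800), and its effect differed between the sexes (0.88, SE 0.19; adjusted p = 0.0161). The noncoding neighbour 2310001K24Rik was not called in females (0.39, SE 0.18; edgeR adjusted p = 0.200) or males (0.31, SE 0.24; adjusted p = 0.659).

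**Figure D3:**
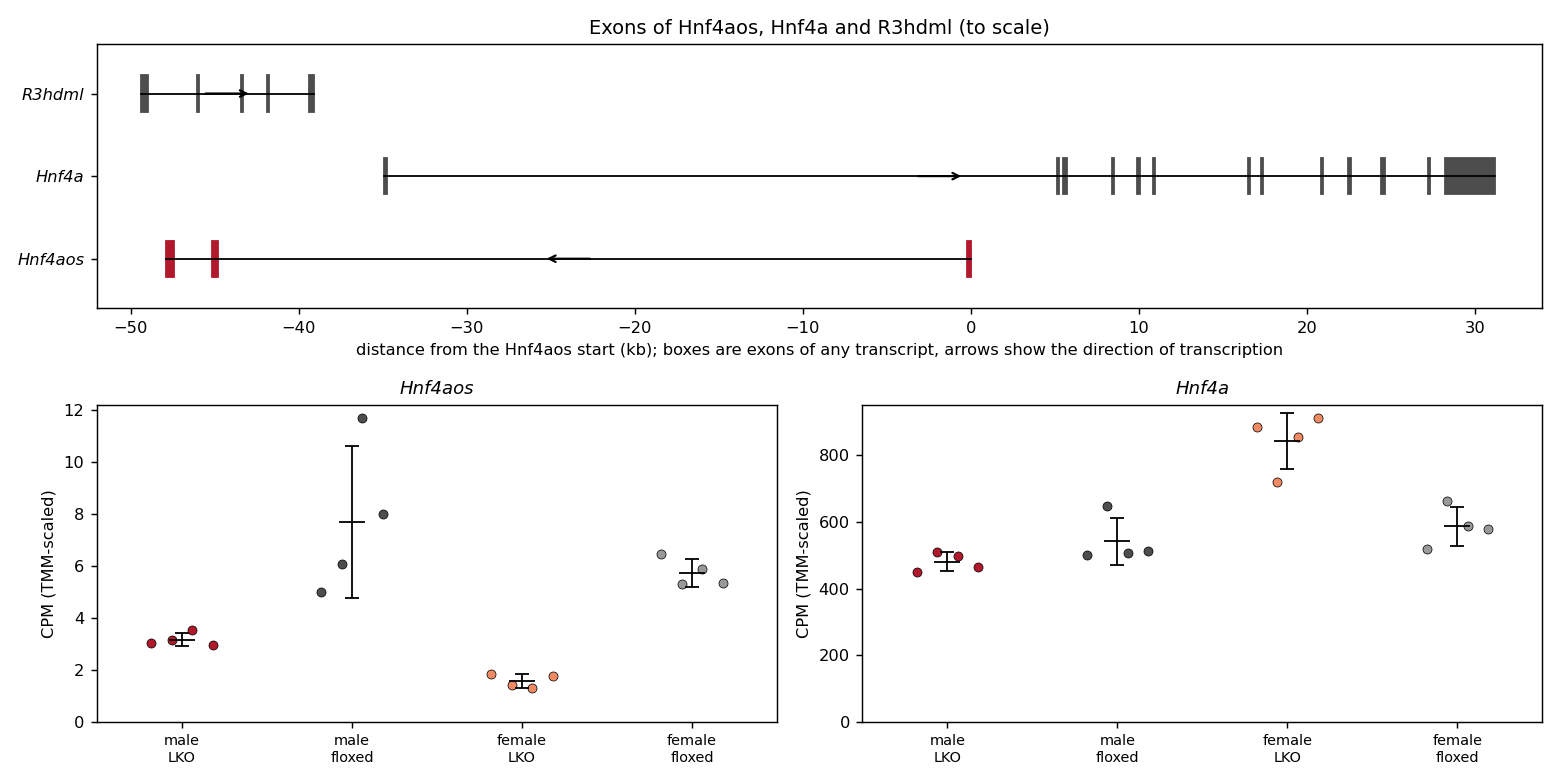
Above, exons of R3hdml, Hnf4a and Hnf4aos to scale, in kb from the Hnf4aos start, with arrows for the direction of transcription. Below, CPM of Hnf4aos and Hnf4a in each library (points) with mean ± SD (n = 4), LKO left of floxed: in females Hnf4aos is lower and Hnf4a higher in LKO, with no overlap in either gene.

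The gene nearest to Gm31333 towards lower coordinates is Gm31508, another lincRNA on the same strand, 97.3 kb away. It moved the other way, measuring 1.57, 2.45, 2.78 and 4.46 CPM in female LKO 5 to 8 and 0.0920, 0.348, 0.279 and 0.155 CPM in female floxed 1 to 4. All LKO females were above all floxed females, and the log2 fold change was 3.66 (SE 0.43; edgeR adjusted p = 0.00367). In males it measured 0.813, 0.762, 0.682 and 0.800 CPM in LKO 5 to 8 and 0.200, 0.430, 0.0594 and 0.189 CPM in floxed 1 to 4, also without overlap, with a log2 fold change of 1.78 (SE 0.40) that was not called (edgeR adjusted p = 0.0769). Without male floxed 2 the male value was 2.32 and called (adjusted p = 0.0266), and without male floxed 1 and 2 it was 2.596 (adjusted p = 0.0337). The difference of its effects between the sexes was not called (1.87, SE 0.65; edgeR adjusted p = 0.111). DESeq2, with all libraries, called both the male effect (1.80, adjusted p = 0.00574) and the difference (1.88, adjusted p = 0.0351). The floxed libraries held 2 to 14 counts of it in males and 3 to 12 in females. Pxdn, the nearest gene on the other side at 737.8 kb, was not called in females (-0.18, SE 0.11; edgeR adjusted p = 0.320) or in males (0.08, SE 0.18; adjusted p = 0.917).

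Gm45716 shares 280 exonic bases with Mmd, a coding gene on the same strand, so reads from that stretch could be assigned to either. Mmd averaged 191 ± 2.52 CPM in male LKO and 203 ± 13.5 CPM in male floxed livers, and 184 ± 7.67 CPM in female LKO and 195 ± 9.82 CPM in female floxed livers (SD, n = 4 each). It was not called in either sex, at -0.09 on the log2 scale in males (SE 0.06; edgeR adjusted p = 0.569) and -0.09 in females (SE 0.08; adjusted p = 0.494). Hlf, a circadian leucine zipper transcription factor 85.3 kb further on, measured 46.8, 46.4, 68.4 and 54.3 CPM in female LKO 5 to 8 and 83.2, 111, 79.9 and 79.7 CPM in female floxed 1 to 4. It fell in LKO females (log2 fold change -0.71, SE 0.15; edgeR adjusted p = 0.0205) and was 0.10 in males (SE 0.09; adjusted p = 0.741), and the effects differed (-0.81, SE 0.19; adjusted p = 0.0222). The female call of Hlf was lost without female floxed 1, female floxed 2, female LKO 5 or female LKO 6 (edgeR adjusted p = 0.0534, 0.0545, 0.0639 and 0.0581), and the difference without male floxed 1 and 2 (0.110) or female LKO 5 (0.0521). Tmem100, 151.2 kb before Gm45716, was not called in females (0.87, SE 0.49; adjusted p = 0.273) or males (-0.41, SE 0.63; adjusted p = 0.867, edgeR).

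Gm15611 lies 1.1 kb upstream of Crot on the same strand. Crot encodes a carnitine octanoyltransferase of peroxisomes and is named here after its values were seen, since the nearest annotated gene by position was Gm37153, which was too low to test. Crot measured 1326, 1219, 1563 and 1826 CPM in female LKO 5 to 8 and 837, 960, 1275 and 835 CPM in female floxed 1 to 4, so the groups overlap through LKO 6 and floxed 3. Its log2 fold change was 0.60 in females (SE 0.17; edgeR adjusted p = 0.0570) and -0.11 in males (SE 0.10; adjusted p = 0.705), beside 3.40 and -0.22 for Gm15611. The female value was called without female floxed 3 (0.76, adjusted p = 0.0367, edgeR) and, with all libraries kept, by DESeq2 (0.60, adjusted p = 0.00824), by the edgeR fit over 16 libraries (0.60, adjusted p = 0.0112) and by edgeR with no filter on low counts (0.60, adjusted p = 0.0470). The difference of its effects between the sexes was 0.71 (SE 0.21), not called by edgeR (adjusted p = 0.0628) and called by DESeq2 (0.71, adjusted p = 0.0147). Gm40264, 35.1 kb beyond Gm15611, was not called in females (0.43, SE 0.23; edgeR adjusted p = 0.257) or males (-0.05, SE 0.17; adjusted p = 0.952).

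Emp2, 10.1 kb from Gm1600 on the same strand, showed log2 fold changes of 0.06 in females (SE 0.10; edgeR adjusted p = 0.720) and -0.25 in males (SE 0.14; adjusted p = 0.522), beside -1.85 and -1.27 for Gm1600. Tekt5 on the other side of Gm1600 had at most 5 counts in any library. The neighbours of Gm34667, which are Mirg and 3110009F21Rik, and that of Gm42642, which is Gm8579, were too low to test.

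**Figure D4:**
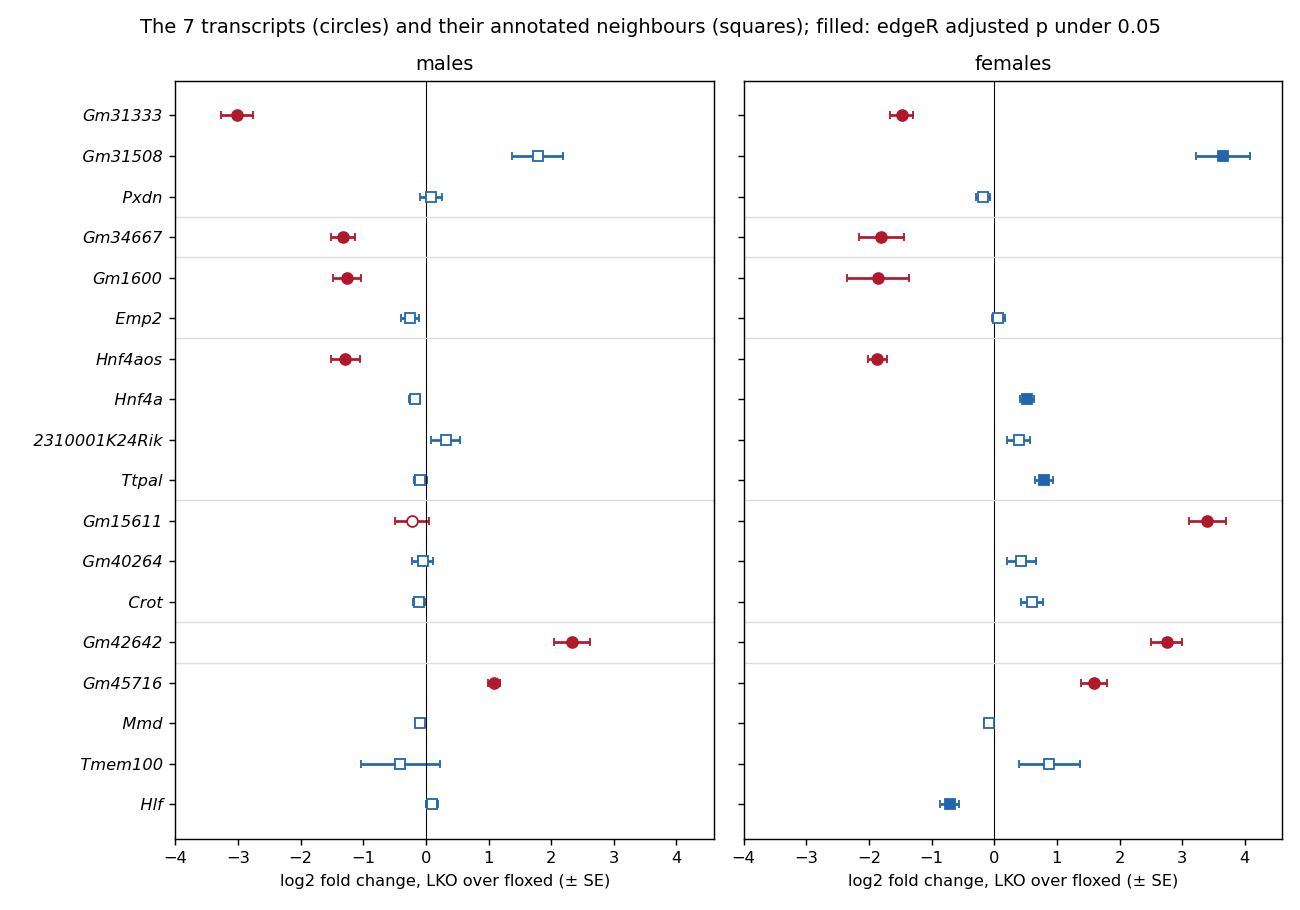
Log2 fold change of LKO over floxed livers (± SE) in males and in females for the 7 transcripts (red circles), the neighbours that were tested and Crot (blue squares), grouped by transcript. Filled symbols have an edgeR adjusted p under 0.05: in females these are Gm31508, Hnf4a and Ttpal above 0 and Hlf below 0 among the neighbours, and in males none.

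The difference between the sexes, averaged over both genotypes, holds the LKO libraries whose values chose the members, so it is given for them as a description with no test. Of the 7 members, 4 were among the genes called higher in females by edgeR and 1 among those called lower, where 47.9% of 16126 genes were called, 23.7% higher and 24.2% lower. Gm15611 stood 2.68 higher in females on the log2 scale (SE 0.21), and the sexes lay farther apart in LKO than in floxed livers. LKO females averaged 11.8 ± 3.28 CPM against 0.518 ± 0.125 CPM in LKO males, while floxed females averaged 1.11 ± 0.39 CPM and floxed males 0.602 ± 0.128 CPM with 1 floxed female inside the male range (SD, n = 4 each). Gm42642 stood 0.71 higher (SE 0.19), with 1.97 ± 0.36 CPM in LKO females against 1.04 ± 0.20 CPM in LKO males and 0.288 ± 0.051 CPM in floxed females against 0.204 ± 0.065 CPM in floxed males.

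Hnf4aos was the only member called lower in females, by a log2 difference of -0.71 (SE 0.15). LKO females averaged 1.57 ± 0.26 CPM and LKO males 3.16 ± 0.26 CPM without overlap, while floxed females at 5.73 ± 0.54 CPM lay within the range of floxed males at 7.68 ± 2.93 CPM (SD, n = 4 each). Hnf4a, which is no member, was higher in females over both genotypes, by 0.46 (SE 0.07; edgeR adjusted p = 8.12e-05). Gm31333 stood 0.51 higher in females (SE 0.16) in the average, but the sexes were apart only in LKO livers and overlapped in floxed livers. Its means were 1.89 ± 0.19 CPM in LKO females against 0.772 ± 0.253 CPM in LKO males, and 5.24 ± 1.16 CPM in floxed females against 6.25 ± 1.36 CPM in floxed males.

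Gm45716 stood 0.38 higher in females (SE 0.12). It averaged 32.1 ± 9.19 CPM in LKO females against 20.7 ± 2.14 CPM in LKO males, and 10.6 ± 1.78 CPM in floxed females against 9.74 ± 0.92 CPM in floxed males. The log2 difference was 0.45 (SE 0.22) for Gm34667 and 0.29 (SE 0.29) for Gm1600.

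The members did not vary as 1 group from library to library. After the mean of each genotype and sex was taken out, Gm34667 and Gm45716 varied together over the 16 libraries (Pearson r of log2 CPM 0.70), as did Gm34667 and Gm1600 (r 0.59), while Gm42642 and Gm45716 varied against each other (r -0.63). Hnf4aos had no r beyond 0.38 in size with any other member. Without female floxed 4 and female LKO 7, a choice made after seeing the data, r over the other 14 libraries was 0.49 for Gm34667 and Gm45716, -0.28 for Gm34667 and Gm1600 and -0.54 for Gm42642 and Gm45716, so the relation of Gm34667 and Gm1600 rests on those 2 libraries. Over the 14 libraries Hnf4aos reached r -0.54 with Gm42642 and 0.48 with Gm45716. These r are descriptions over libraries that share depth and composition.

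The named genes most like each member were taken as the 3 with the highest such r among 10892 genes. Picking the highest of so many r over 16 libraries can give high values without any relation. The genes are therefore named as a description with no test. For Hnf4aos they included Cpox, an enzyme of haem synthesis, and Tufm, a mitochondrial elongation factor (r 0.88 and 0.88). For Gm45716 they were Ndufa9, a subunit of respiratory complex I, Aadat and Ints13 (r 0.96, 0.94 and 0.93). For Gm34667 they were the mitochondrial deacetylase Sirt3, Cbr4 and Susd4 (r 0.88, 0.88 and 0.87), and for Gm1600 Cyb5r3, Slc22a18 and Rarres2 (r 0.91, 0.88 and 0.88). For Gm15611 they were Smpd3, Bmp2k and Kctd17 (r 0.86, 0.85 and 0.84), for Gm42642 Chic2, Zdhhc14 and Nelfa (r 0.84, 0.83 and 0.82), and for Gm31333 Cdpf1, Zfp398 and Eva1a (r 0.80, 0.78 and 0.78). Without female floxed 4 and female LKO 7 the r fell to 0.30 for Gm1600 with Slc22a18, 0.23 for Gm1600 with Rarres2 and 0.65 for Gm1600 with Cyb5r3, and to 0.60 and 0.59 for Gm34667 with Sirt3 and Susd4, while the other pairs named here lay between 0.74 and 0.93. The libraries that remained had also been used to choose the genes.

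The annotation classes of the members, the members included, were counted as a setting. Among GENCODE lincRNAs 12 of 450 tested were called in males (2.67%), 3 of them members, and 40 of 440 in females (9.09%), 4 of them members. Among GENCODE antisense transcripts 4 of 656 were called in males (0.610%) and 27 of 704 in females (3.84%), with Hnf4aos 1 of the called in each sex. Among processed pseudogenes, Gm42642 was the 1 called of 256 in males, and 12 of 244 were called in females. The shares over all genes tested were 1.04% in males and 9.29% in females, so nothing is read from these class counts.

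A list of 39 long noncoding RNAs with established names was measured beside the members. In males 2 of 34 tested rose and 1 fell by edgeR: H19, an imprinted RNA of growing tissue, by 2.93 on the log2 scale (SE 0.58; adjusted p = 0.0441), Snhg11 by 0.58 (SE 0.11; adjusted p = 0.0431) and Lncbate1 by -1.34 (SE 0.27; adjusted p = 0.0468). In females 2 of 33 rose, Airn, the antisense RNA of the imprinted Igf2r locus, by 1.5002 (SE 0.31; adjusted p = 0.0205) and Snhg3 by 0.86 (SE 0.24; adjusted p = 0.0492). DESeq2 called 5 of the list in males and 6 in females. Over all genes tested edgeR called 1.04% in males and 9.29% in females. The median of the list was -0.11 in males and -0.06 in females, against -0.006 and 0.001 for all genes tested.

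Because Hnf4aos lies opposite Hnf4a, transcription factors of hepatocytes and genes known as targets of HNF4A were also counted. None of 25 transcription factors was called in males by edgeR, where 2 had an unadjusted p under 0.05 and DESeq2 called 0. In females 2 rose, Hnf4a and Gata6 (0.59, SE 0.14; adjusted p = 0.0341), and 1 fell, the xenobiotic receptor Nr1i3 (-1.01, SE 0.16; adjusted p = 0.00796). Of 21 HNF4A targets, Cyp8b1, which directs bile acids towards cholic acid, rose in males (0.49, SE 0.09; edgeR adjusted p = 0.0368). In females 2 of the 21 rose, the gluconeogenic Pck1 (0.77, SE 0.18; adjusted p = 0.0278) and the tyrosine aminotransferase Tat (1.30, SE 0.32; adjusted p = 0.0336), and 2 fell, the hepatic lipase Lipc (-0.92, SE 0.18; adjusted p = 0.0171) and transthyretin, Ttr (-0.75, SE 0.18; adjusted p = 0.0338). DESeq2 called 4 of the targets in males and 8 in females, and 4 of the transcription factors in females. The shares of all genes called by edgeR were 1.04% in males and 9.29% in females. The median of the targets was -0.03 in males and 0.09 in females.

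Markers of other liver cells moved with genotype in females beside these transcripts. The 8 sinusoidal endothelial markers summed to 173 to 232 CPM in female LKO and 261 to 278 CPM in female floxed livers, and 6 of the 8 fell by edgeR. Of all genes tested, edgeR called 4.85% lower and 4.44% higher in females, and 0.514% lower in males. The 7 hepatocyte markers summed to 46442 to 61900 CPM in female LKO and 67507 to 76962 CPM in female floxed livers. Of these 7, Alb (-0.88, SE 0.21; edgeR adjusted p = 0.0303) and Ttr fell and Fgb rose (1.16, SE 0.19; adjusted p = 0.00869), and their median log2 fold change was 0.06. In males the 5 adipocyte markers with a row in both tables summed to 33.9 to 68.5 CPM in LKO and 10.4 to 27.0 CPM in floxed livers, while sinusoidal markers summed to 294 to 321 CPM and 225 to 304 CPM. Only 2 adipocyte markers, Cfd and Aqp7, were tested in males, where edgeR called 0 of them and DESeq2 called 2. Of the other marker lists, 1 of 6 cholangiocyte and 2 of 8 stellate cell markers fell in females by edgeR and 1 acinar marker fell in males, while none of the Kupffer cell, neutrophil, lymphocyte and erythroid markers was called in either sex (1 Kupffer cell and 1 neutrophil marker in females and 0 in males had an unadjusted p under 0.05, and DESeq2 called 0). The part of these differences in the values of the 7 transcripts was not tested.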

How the data were processed

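Liver RNA of 16 mice was sequenced from directional poly(A) libraries, per the labels' protocols, on the build mm10, per the submitters' processing notes. The authors deposited whole-number counts per Ensembl gene, 1 table per sex, and these were used as given. The aligner, the counting program and its strand setting are not given in the sources used here, so reads of overlapping or antisense genes may not be fully separated. The members and gene lists were chosen with earlier results of these data known, and the lists support no direction.

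Low counts were removed by filterByExpr at a minimum count of 10 and a minimum total of 15. Libraries were scaled by TMM, and two-sided quasi-likelihood tests were run in edgeR 4.0.16 (R 4.3.3), with Benjamini-Hochberg adjustment over all genes tested and a threshold of 0.05. Each sex was fitted alone for LKO against floxed. A fit of all 16 libraries over 23167 shared identifiers gave the difference of the LKO effects and females against males over both genotypes. SEs were derived from the fold change and F. CPM values are scaled over the 16 libraries, and log2 CPM used a prior count of 2. Positions came from GENCODE vM21, transcript matches from blastn 2.17.0 (at least 100 bases, 88% identity) and start windows from RefSeq, which held entries for 4 of the 7 members.

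Named genes were the 7 members, Matr3, the genes overlapping each member and the nearest gene on each side, the 3 named genes with the highest r within groups (mean log2 CPM of at least 1), and up to 4 genes of a list. A gene that this rule names is not reported here. Each library is labelled as a separate mouse. The libraries held 30495505 to 36496193 counts. No pair within a group was a copy (smallest chi-square per degree of freedom 13.7). Alternatives were DESeq2 1.42.0, limma-voom (limma 3.58.1), other scalings, no filter, robust dispersion, a replicate block, the 16-library fit and the omission of libraries. The procedure was tested on simulated data in which all genes shared a common dispersion. No level of recovery was required there for the difference of the LKO effects.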

Additional observations from a re-analysis of the deposited data

Results flagged for a closer look

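Values of the 7 members and of the 4 called neighbours were checked in 44 groups of 4 libraries for a library far from the other 3, which chance gives in about 1 of 20 groups. Female floxed 4 stood below the other floxed females for Gm34667 (3.89 CPM) and for Gm1600 (1.30 CPM). Male LKO 6 stood above the other LKO males for Gm42642 (1.34 CPM). Among the neighbours, female floxed 2 was high for Hlf (111 CPM) and male floxed 2 was high for Hnf4a (647 CPM). The LKO effect differed between the sexes by edgeR for Hnf4a (0.70 higher in females on the log2 scale, adjusted p = 0.0150), Ttpal (0.88 higher, adjusted p = 0.0161) and Hlf (-0.81, adjusted p = 0.0222).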

How the results depend on the processing

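Among 238 recomputed LKO effects of the 7 members, every effect called with all libraries kept its direction. That of Gm15611 in males, which was not called, lay between -0.358 and -0.106 with 1 library left out. Its direction under the other alternatives was not checked. Gm1600 in females moved from -1.85 to between -2.59 and -1.58 with 1 library left out and to -2.82 without female floxed 4 and female LKO 7. Leaving out 1 library at a time gave 69 to 179 called genes in males (160 with all libraries), 396 to 2300 in females (1433), 407 to 1435 for the difference of the effects (719), 3 to 6 called members in males, 5 to 7 in females, 0 to 1 called neighbours in males and 2 to 4 in females. The 3 members called in males came without male LKO 5, the 1 called male neighbour, Gm31508, without male floxed 2. DESeq2 called 518 genes in males, 2415 in females, 1358 for the difference and 1 male neighbour, and the 16-library fit called 98 in males and 2860 in females. Without male floxed 1 and 2 the difference gave 243 genes and the male neighbours 1, and without female floxed 4 and female LKO 7 the females gave 3028 and the difference 2030. The causes were not tested. The replicate numbers did not pair the libraries (r of deviations -0.12 to 0.13), and with a replicate block the difference gave 458 genes, the sexes 7075 in place of 7732, and 5 members as before. Scaling by library totals split the calls into 449 higher and 1240 lower in females (685 and 748 with TMM), 203 and 698 for the difference (295 and 424) and 4273 and 3302 between the sexes (3826 and 3906), and upper quartile scaling gave 4289 and 3403 between the sexes. Over alternatives 4 to 6 members were called between the sexes. Values that changed sign, none of them called, were Crot (0.0412) and Hlf (-0.0132) in males without male floxed 1 and 2, Emp2 in females with library totals (-0.0136) and Tmem100 in males with limma-voom (0.129). With 1 library left out at a time, Gm1600 between the sexes ran from -0.0857 to 0.423, Emp2 in females from -0.000150 to 0.136, and in males Gm40264 from -0.138 to 0.0435, Pxdn from -0.0674 to 0.231 and Tmem100 from -0.786 to 0.179. Depth limits Gm42642, Gm15611, Gm1600, Gm31508 and, in male LKO, Gm31333, which have under 25 counts in some libraries.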
